A study of Homo sapiens with 2 samples.

Results

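The heat shock proteins and chaperonins described here were 10 human genes of protein folding: HSP90B1, HSP90AA1, HSP90AB1, HSPA5, HSPA8, HSPA9, HSPD1, CCT6A, CCT3 and CCT5. They are 10 of the 19987 protein-coding genes against which the list was read. They were taken by name, with earlier results of these data known. An interval was given to a gene when the deposited list named that gene by its NCBI number and the midpoint of the interval lay inside the gene's RefSeq span. The data were a HITS-CLIP experiment, in which ultraviolet light crosslinks proteins to the RNA they touch, an antibody pulls the protein down, and the attached RNA fragments are sequenced as tags. It was done with an antibody against SF3B1, the large subunit of the U2 snRNP's SF3b complex, which holds the branch point region of introns, in MDA-231-LM2 cells, a breast cancer line selected for metastasis to the lung. Both biological replicates formed 1 group, with no control or input library, and the authors pooled them into 1 list of peaks, so that no value below has an error between replicates. One label, the extract protocol, names another protein, SNRBP2, as the target, and that difference was not settled here.

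Chaperones bind unfolded proteins and help them reach or keep their folded shape. HSP90 proteins act late, on nearly folded clients such as kinases and steroid receptors; HSP70 proteins act early, on short hydrophobic stretches of the new chain; chaperonins enclose the client in a chamber, HSPD1 in the mitochondrion and the ring of CCT subunits, called TRiC, in the cytosol, where actin and tubulin are its best known clients. Cells raise the cytosolic members through heat shock factors and those of the endoplasmic reticulum (ER) through the unfolded protein response, and tumour cells are known to depend on high chaperone levels.

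Sequence elements of both routes were searched before the genes' start sites, which are also the points from which some positions below are measured. RefSeq windows of 250 bases before and 50 after a start (GRCh38.p14) were present for 9 of the 10 genes, with 13 windows in all. A heat shock element, searched on both strands as GAANNTTCNNGAA, occurred in a window of HSP90AA1, HSP90AB1, HSPA8 and HSPD1. That is 4 of the 13 windows, beside 0.490% of all 35116 promoter windows. An ER stress element, searched on both strands as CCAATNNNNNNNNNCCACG, occurred in the windows of HSP90B1 and HSPA5, 2 of the 13, and in 0.0769% of all windows. No window held both, and those of HSPA9, CCT3 and CCT5 held neither. The elements were chosen as those of the routes known to raise such genes, so these shares do not measure an excess over all windows. The 250 bases before the start are shown for 5 genes, 5′ to 3′ in the direction of the gene, with matches in capitals.
HSP90AA1, inner start, chr14:102087045-102087294, minus strand: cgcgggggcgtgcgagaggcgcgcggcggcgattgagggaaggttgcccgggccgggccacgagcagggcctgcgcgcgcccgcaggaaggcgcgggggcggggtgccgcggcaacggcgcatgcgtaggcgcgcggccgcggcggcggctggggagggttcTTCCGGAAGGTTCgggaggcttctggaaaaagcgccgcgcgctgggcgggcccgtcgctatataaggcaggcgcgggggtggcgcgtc
HSP90AB1, innermost start, chr6:44247693-44247942, plus strand: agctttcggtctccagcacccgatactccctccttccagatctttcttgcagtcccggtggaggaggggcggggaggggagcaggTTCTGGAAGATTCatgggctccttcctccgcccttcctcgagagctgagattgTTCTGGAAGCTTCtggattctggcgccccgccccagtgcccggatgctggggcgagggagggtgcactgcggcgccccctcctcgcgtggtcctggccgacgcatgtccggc
HSPA8, chr11:123062137-123062386, minus strand: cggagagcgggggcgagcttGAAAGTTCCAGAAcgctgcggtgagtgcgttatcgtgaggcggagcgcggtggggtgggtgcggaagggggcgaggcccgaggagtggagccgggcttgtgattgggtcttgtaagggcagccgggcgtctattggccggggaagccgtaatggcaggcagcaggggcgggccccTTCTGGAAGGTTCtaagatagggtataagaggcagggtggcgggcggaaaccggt
HSP90B1, chr12:103930160-103930409, plus strand: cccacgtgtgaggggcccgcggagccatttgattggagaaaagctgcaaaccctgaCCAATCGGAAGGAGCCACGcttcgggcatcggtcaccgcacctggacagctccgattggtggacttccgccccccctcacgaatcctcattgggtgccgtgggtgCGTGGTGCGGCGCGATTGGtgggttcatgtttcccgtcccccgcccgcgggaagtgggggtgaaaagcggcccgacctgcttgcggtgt
HSPA5, chr9:125241344-125241593, minus strand: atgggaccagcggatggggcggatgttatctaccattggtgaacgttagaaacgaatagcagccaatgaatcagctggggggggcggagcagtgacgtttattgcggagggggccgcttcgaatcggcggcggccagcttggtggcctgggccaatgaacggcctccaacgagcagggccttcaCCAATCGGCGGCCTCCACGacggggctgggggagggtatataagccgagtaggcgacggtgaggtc
The match of HSP90AA1 spans bases -88 to -76 from its inner start, and HSPA8 has matches at -230 to -218 and at -55 to -43. HSP90AB1 has matches at -165 to -153 and -112 to -100. HSP90B1 has an ER stress element in each direction, at -194 to -176 and at -89 to -71, and HSPA5 has 1, at -66 to -48. HSPD1 has 2 overlapping heat shock elements, from -245 to -228 before the inner of its 2 starts, which lies 434 nt inside the outer one. The 8-letter core GAANNTTC, which lies inside each heat shock element, was in 4 of the 13 windows, of the same 4 genes, and in 6.77% of all windows. The CCAAT box alone was in 5 of the 13 windows, of 5 genes, and in 34.6% of all. The exact letters TATAAA were in none of the 13 and in 11.5% of all. Variants of this TATA box were not searched, so this does not show that the genes lack one. The sequences shown for HSP90AA1, HSPA5 and HSPA8 hold the near match TATAAG. A match is a description of letters and was not tied to any tag. An interval lay in 2 of the 4 genes with a heat shock element and 1 of the 2 with an ER stress element. That is the same share as in the members as a whole, 5 of 10, beside 5.29% of all protein-coding genes. The share over all genes with such an element was not counted.

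An interval lay in 5 of the 10 chaperone genes, 1 in each, against 5.29% of all protein-coding genes. The 10 genes were chosen with earlier results of these data known, so their shares here do not measure an excess over all genes. HSP90B1 held the tallest, with 24 tags at its top, then HSPA8 with 14, CCT6A with 10, HSP90AA1 with 8 and CCT3 with 5. HSP90AB1, HSPA5, HSPA9, HSPD1 and CCT5 held none. Height is the authors' own value, the number of pooled tags at the top of the peak, without scaling for transcript level or gene length. The median over the 5 intervals was 10 tags, beside 7 over the 1306 intervals in protein-coding genes, and 4 of the 5 lay above 7 tags, beside 46.4% of all. By gene, 4 of the 10 held an interval above 7 tags, beside 2.43% of all protein-coding genes, and 4 held one outside small RNA genes, beside 5.2%. Among protein-coding genes in the members' range of spans, 4974 to 59008 nt, 4.85% held an interval. Holding 1 interval and no more was common, as 871 of the 1057 genes with any (82.4%) held 1. How abundant these transcripts were was not measured, and its part in the counts was not tested.

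**Figure D1:**
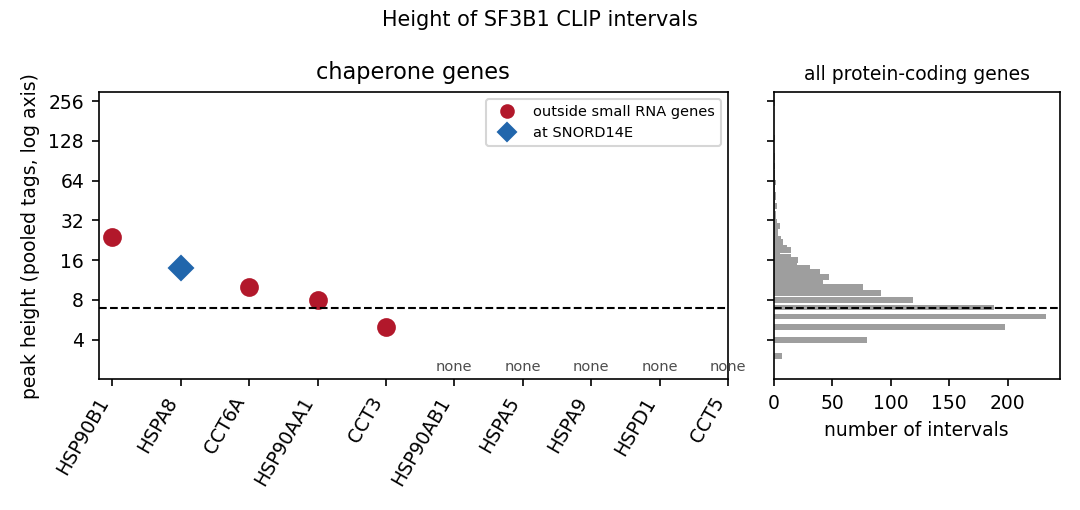
Peak height in pooled tags (log axis) of the interval in each chaperone gene, left, and the number of intervals at each height over all protein-coding genes, right; the dashed line is the median over all protein-coding genes, 7 tags. HSP90B1, HSPA8, CCT6A and HSP90AA1 lie above the line at 24, 14, 10 and 8 tags and CCT3 below it at 5, the diamond marks the interval at SNORD14E, and 5 genes have none.

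Among the HSP90 genes, the ER form and the inducible cytosolic form carried tags and the constitutive cytosolic form did not reach the list. HSP90B1 (GRP94, the HSP90 of the ER, which folds integrins and Toll-like receptors; NCBI gene 7184) spans chromosome 12, 103930410 to 103947926 on the plus strand (hg38, as for all positions). Its interval lay at 103943706 to 103943752, 47 nt wide, 13319 nt from the start and 4197 nt from the end of the span. Of the 1306 intervals in protein-coding genes, 55 (4.21%) were as tall, itself included. It lay far from MIR3652, the microRNA gene nested at the start of HSP90B1, which held no interval.

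HSP90AA1 (HSP90 alpha, the stress-inducible cytosolic form; NCBI gene 3320) spans chromosome 14, 102080742 to 102139749 on the minus strand. Its interval of 8 tags lay at 102083233 to 102083267 and was the narrowest of the 5, at 35 nt. It was 56499 nt from the outer RefSeq start but 3794 nt from the inner one, whose promoter carries the heat shock element shown above, so it lies downstream of both. Its height was close to the middle of the list: 606 of the 1306 intervals (46.4%) were as tall. HSP90AB1 (HSP90 beta, the constitutive form) had no interval on its 7690 nt span at chromosome 6, 44246194 to 44253883.

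Of the 3 HSP70 genes among the members, only HSPA8 had an interval, and it fell on a nested small nucleolar RNA (snoRNA) gene. HSPA8 (HSC70, the constitutive cytosolic HSP70, which also strips clathrin from vesicles; NCBI gene 3312) spans chromosome 11, 123057489 to 123062462 on the minus strand, and is the shortest of the 10 genes. The interval, 14 tags at 123058118 to 123058160, overlapped SNORD14E (123058077 to 123058156, 80 nt) over 39 of its 43 nt. The other 4 nt extended past the 5′ end of the snoRNA, and the interval left the last 41 nt of the snoRNA uncovered. SNORD14E is a C/D box snoRNA of a family that guides methylation of the small ribosomal subunit's RNA. Its sisters SNORD14C and SNORD14D in the same host held no interval, nor did SNORD14A and SNORD14B elsewhere on the chromosome. Tags of the snoRNA and of the HSPA8 precursor cannot be told apart in the list.

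The members together host 9 small RNA genes, all of them snoRNA genes except the microRNA gene MIR3652. SNORD14E was the only one with an interval. By position, 3.09% of all 1199 snoRNA genes held an interval, a share that leaves out microRNA genes. HSPA9 (mortalin, the HSP70 of the mitochondrial matrix) hosts SNORD63 and SNORD63B, and no interval lay there or elsewhere on its span at chromosome 5, 138553756 to 138575401. HSPA5 (BiP, the HSP70 of the ER and the sensor partner of the unfolded protein response) had none on its 6491 nt span at chromosome 9, 125234853 to 125241343. HSPA5 and HSP90B1 share the ER stress element and the compartment of their proteins. HSP90B1 held an interval of 24 tags and HSPA5 none, and a link of intervals to element or compartment was not tested. Absence from the list says that no significant peak was listed, not that there were no tags.

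The TRiC chaperonin had intervals in 2 of the 3 member subunits, CCT6A above and CCT3 below the median height of 7 tags. CCT6A (the zeta subunit; NCBI gene 908) spans chromosome 7, 56051765 to 56063989. Its interval of 10 tags lay at 56062659 to 56062702 on the plus strand, outside its nested snoRNAs SNORA22B and SNORA15, and 397 of 1306 intervals (30.4%) were as tall. CCT3 (the gamma subunit; NCBI gene 7203) spans chromosome 1, 156308968 to 156338292 on the minus strand. Its interval at 156311199 to 156311242 had 5 tags, a height that 93.3% of intervals in protein-coding genes reached, and the weakest listed p-value of the 5, 0.0252. CCT5 (the epsilon subunit) had none on chromosome 5, 10249921 to 10266412. HSPD1 (HSP60, the mitochondrial chaperonin) also had none on chromosome 2, 197486584 to 197500274, including its nested snoRNA gene SNORA105B.

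All 5 intervals lay in the last 25% of their gene's span. Measured from the start of the span, the position was 76.0% in HSP90B1, 86.9% in HSPA8, 89.3% in CCT6A, 92.3% in CCT3 and 95.7% in HSP90AA1. The distance from the interval's midpoint to the end of the span ran from 650 nt in HSPA8 to 4197 nt in HSP90B1. Over all protein-coding genes, 38.4% of intervals lay in the last 25%, and over genes in the members' range of spans, 31.8%. The median position was 89.3% in the 5 members, beside 66.2% over all protein-coding genes. The 8 intervals of other protein folding genes, described below, had a median position of 68.4%, and 37.5% of them lay in the last 25%. The 5 member positions include that of HSPA8, whose interval lay at SNORD14E. HSP90AA1 depends on which start is used: measured from its inner start its interval lies at 60.2% of the way, which leaves 4 of 5 in the last 25%. Exons, introns and splice sites were not used here, so none of these positions is placed in an exon, an intron or an untranslated region.

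**Figure D2:**
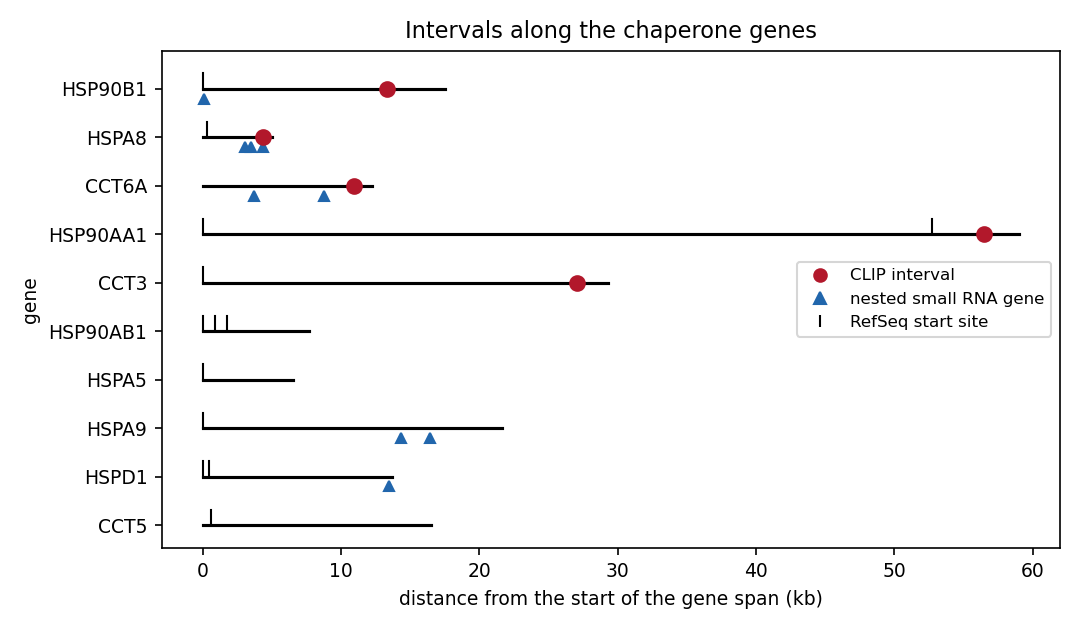
Each chaperone gene drawn to scale as a line from the start to the end of its RefSeq span, in kb and in the direction of the gene, with RefSeq start sites as ticks, nested small RNA genes as triangles and CLIP intervals as red points. The 5 red points lie between 76.0% and 95.7% of the span, that of HSPA8 sits over a small RNA gene, and that of HSP90AA1 lies between the inner start and the end of the span.

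The deposited list also gives the height expected for each gene, and against it the members ranked differently. The interval reached 167 times the expected height in CCT3, 141 times in HSP90B1, 114 times in HSP90AA1, 52.6 times in CCT6A and 14.1 times in HSPA8. The median of these ratios was 114, beside 167 over the 1268 protein-coding pairs of gene and interval with an expected height above 0. Expected heights were 0.99 tags for HSPA8, 0.19 for CCT6A, 0.17 for HSP90B1, 0.07 for HSP90AA1 and 0.03 for CCT3, beside a median of 0.05 over all. Only 30 of the 1268 pairs had an expected height as great as that of HSPA8. Expected heights are listed to 2 decimals, and by that rounding the ratio could be as low as 143 in CCT3 and as high as 145 in HSP90B1, so the order of these 2 genes is not settled. HSPA8 had the second tallest peak but the smallest ratio.

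The lowest heights in the list were greater where the expected height was greater, so each member was also set beside intervals of other genes whose expected height was within 1.2-fold of its own. The lowest such interval had 5 tags for CCT3, 6 for HSP90AA1, 7 for HSP90B1 and CCT6A and 11 for HSPA8. HSP90B1 stood high: of 56 such intervals, 1 was as tall, and their median was 9.5 tags. With a window of 1.5-fold, 6 of 139 were as tall. HSP90AA1 was near the middle, with 71 of 167 as tall and a median of 7, and so was CCT6A, with 27 of 52 as tall and a median of 10. HSPA8, at its 14 tags, was below the median of 15.5 of 18 such intervals. CCT3 was at the bottom, since all 161 had at least its 5 tags.

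**Figure D3:**
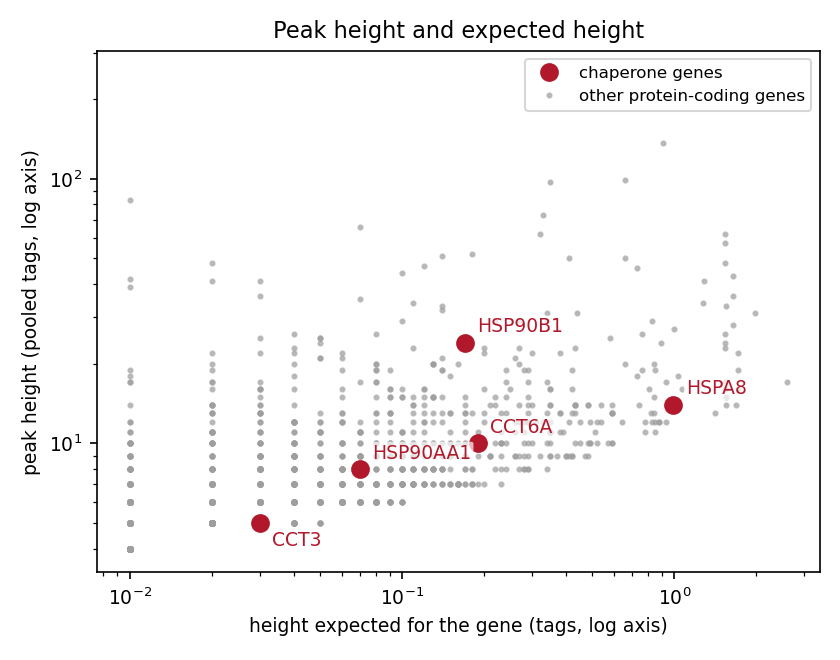
Peak height in pooled tags against the height that the deposited list expects for the gene, both on log axes, for intervals of the chaperone genes (red, named) and of other protein-coding genes (grey) with an expected height above 0. HSP90B1 at 24 tags stands above most points of like expected height, CCT3 at 5 tags lies on the lower edge of the cloud, and HSPA8 lies far to the right at 0.99.

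Copies of these genes elsewhere in the genome were counted as well, because the file's name speaks of unique tags; whether this means tags that map to 1 place or tags without duplicates is not given in the sources used here. By symbol, RefSeq holds 66 pseudogenes of the 10 genes, of which 22 belong to HSPD1 and 20 to HSPA8, and none of the 66 held an interval. The share over all pseudogenes was not counted, so this is no result about these copies. HSP90AB1 has 6, HSP90AA1 and CCT6A 5 each, HSP90B1, HSPA9 and CCT5 2 each, and HSPA5 and CCT3 1 each. HSPD1, with the most copies, had no interval, and the single interval of HSPA8 lay at a snoRNA. HSPA5, with 1 copy, had none either. Whether tags shared between copies were lost was not tested.

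The 10 lists of protein folding genes, taken from background knowledge, held 106 genes beside the members, and 8 of these (7.55%) held an interval, near the 5.29% of all protein-coding genes. The HSP90 family was covered in 3 of its 4 genes through TRAP1, the mitochondrial HSP90, with 14 tags. The HSP70 and HSP110 family had 2 of 16, HSPA8 and HYOU1, an ER chaperone related to HSP110, whose interval of 29 tags was the tallest among all 116 genes and lay 260.5 nt from the end of its span. TRiC had 3 of 8 subunits, the third being CCT8 (theta) with 6 tags. These family counts include the members, which were chosen with earlier results of these data known. The ER lectin chaperones and disulfide isomerases had 1 of 11, the lectin CANX with 7 tags.

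Partners of HSP70 and HSP90 held intervals at shares near the 5.29% of all protein-coding genes. Of 27 J-domain proteins, which stimulate the ATPase of HSP70, 2 held one (7.41%), DNAJB2 with 9 tags and DNAJC11 with 5. Of 23 cochaperones, 2 held one (8.70%): CDC37, which brings kinases to HSP90, had 13 tags and UNC45A, which folds myosin with HSP90, had 6. Prefoldin and other TRiC partners (8 genes), small heat shock proteins (8), regulators of the heat shock and unfolded protein responses (9) and HSPE1, the lid of the HSPD1 chamber, had none; lists of so few genes cannot show a share below that of all protein-coding genes. The heights of the 8 intervals had a median of 8 tags, beside 10 in the members. None of the 8 lay at a small RNA gene, and 3 of the 8 lay in the last 25% of the span (HYOU1, DNAJC11 and TRAP1). Relative to the expected height, TRAP1 reached 467 times and CDC37 260 times, both above every member, while the other 6 ran from 75 to 167 times.

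**Figure D4:**
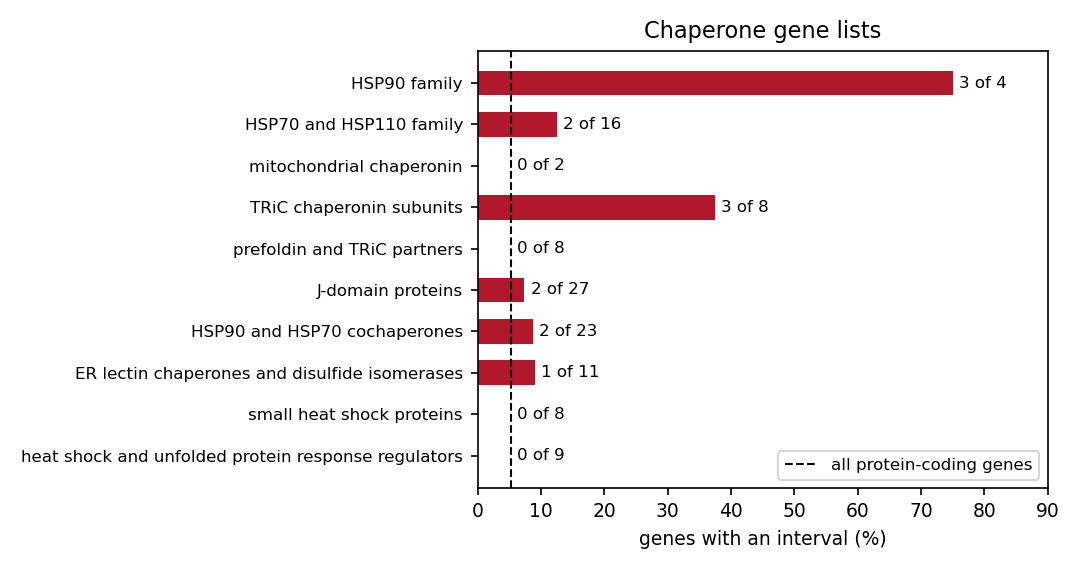
Share of genes with an interval, in percent, in each of 10 lists of chaperone genes, members included, with the count beside each bar; the dashed line is the 5.29% of all protein-coding genes. The bars of the HSP90 family (3 of 4) and TRiC (3 of 8) are the longest, and 4 lists have none. Both bars include members, which were chosen with earlier results of these data known. Outside the members, the counts are 1 of 1 in the HSP90 family and 1 of 5 in TRiC.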

How the data were processed

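The authors deposited 1 peak list from the pooled tags of both libraries. Its signal is the peak height in pooled tags, without normalization; the text field of each row, also deposited by the authors, adds an NCBI gene number, an expected height and a p-value. The file's name records unique tags (unique in which sense is not given) and significant peaks, with intervals bounded at a set part of the height. The submitters' processing notes name cutadapt 2.3, BWA 0.7.17 and hg38; neither the peak calling program and its settings nor the annotation behind the gene numbers is given in the sources used here. Tags per library are unknown, so no depth or counting interval is given.

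The 1587 rows held 1406 distinct intervals (chromosome, start, end and strand). Gene spans, start sites and promoter windows came from RefSeq (GRCh38.p14), and no exon annotation was used; genes on chromosomes without an interval were left out. Gene direction was RefSeq's or, where not given, that of the interval's strand; both matched in all 1095 pairs that could be compared. Small RNA genes were those of at most 500 nt. All 116 genes of the 10 lists, members included, matched RefSeq. The text names all members, and of the lists every gene with an interval. The members, lists and motifs were chosen with earlier results of these data known. With 1 pooled list and no control, no test was run. Assignment was tested on simulated data. Python 3.11.15, numpy 2.4.6, pandas 2.3.3 and matplotlib 3.10.9 were used.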

Additional observations from a re-analysis of the deposited data

How the results depend on the processing

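The 5 members with an interval, and their 5 intervals, were the same count with any overlap of 1 nt and with gene numbers as listed; the count of members was also 5 by position alone, and the count of intervals 5 when merged within 50 nt. Both were 4 without the interval at SNORD14E (in HSPA8) and 4 among intervals above the median height of 7 tags (without CCT3). The typical height of 10 tags became 10.6 as a geometric mean, 9 without SNORD14E and 10 with the tallest interval of each gene. Of all 116 listed genes, 13 held an interval, 8 above the median height, 12 outside small RNA genes and 13 by position. The median position of 89.3% became 86.0% from the nearest start upstream and 90.8% without SNORD14E, both chosen after seeing the data. No paired analysis was possible because the list pools both replicates. For the same reason no replicate could be left out.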

Other observations

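The deposited list gave 2 chaperone genes of chromosome 21 in a way that differs from their position. CRYAA, a small heat shock protein of the lens, was listed for 8 intervals, none of which lay in its span, and it was therefore counted as holding none. The span of CCT8 held, besides the gene's own interval of 6 tags, 1 interval of 4 tags that was listed only under other genes. Strand was ignored in this comparison, so the interval of 4 tags need not be wrongly listed. No such mismatch was found for the 10 members or for the remaining listed genes.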
